A study of Rattus norvegicus with 4 samples.

Results

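Transcripts were compared between 2 cultures of primary rat astrocytes, glial cells that support neurons and take part in brain inflammation. The first was transfected with SHP siRNA and treated with interferon-γ (IFN-γ) together with a compound named GW in the labels, and the second was transfected with control siRNA and treated with IFN-γ alone. The comparison asks what remained different from IFN-γ alone in the presence of GW when SHP was lowered. It changes 2 things at once, GW and the siRNA, which cannot be told apart in it. These are 2 of the 4 arrays of the series. The other 2, an untreated culture with control siRNA and a culture with control siRNA, IFN-γ and GW, are given beside them. All cells came from the cerebral cortex of 1 day-old Sprague-Dawley rats, had been held without serum to deplete microglia and meningeal cells, and were treated for 3 h. Each condition was measured on 1 array, so there is no replicate, no test between conditions and no error bar, and a difference may be one between single cultures or single arrays. All values are log2 signals as deposited, and each difference is the SHP siRNA, IFN-γ and GW array minus the IFN-γ array unless another is named. Of 18166 genes with a named probe, 11790 had a highest value over the 4 arrays of at least 5.83, the median of the whole table, and were compared. Plekhn1 lay just inside this filter and Unc5a just outside it, both with a highest value of 5.83.

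SHP, small heterodimer partner, is a nuclear receptor that lacks a DNA-binding domain and represses transcription by binding other receptors and corepressors. IFN-γ signals through receptor-bound Janus kinases and induces chemokines, guanylate-binding proteins and antigen presentation genes. Immediate early genes, by contrast, are transcribed within minutes of many stimuli without new protein synthesis, often through the cyclic AMP response element and the serum response element (CArG box).

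Nr0b2, the gene for SHP, stood at 5.33 in the untreated culture, 5.14 with IFN-γ, 5.20 with IFN-γ and GW, and 3.45 with SHP siRNA, IFN-γ and GW. The SHP siRNA array was the lowest, but all 4 values lay below the filter, and the arrays' background level is not known. The 2 arrays compared were alike in scale, with medians of 5.80 for IFN-γ and 5.85 for SHP siRNA with GW, and correlated at 0.991 across probes, which are not independent replicates. Defining astrocyte markers were high on both: the filament gene Gfap was at 12.06 on each, and the glutamate transporter gene Slc1a3 was at 11.38 and 11.24. The summed signal of 18 astrocyte markers was 15.12 and 15.20 (log2).

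In the culture with SHP siRNA and GW, genes of the immediate early response were higher than with IFN-γ alone and several cytokine and surface receptor genes were lower. Among 11790 genes, 53 (0.450%) had a difference of 2-fold or more upwards and 48 (0.407%) one of 2-fold or more downwards, while 95% of genes, taken around the middle, ranged from -0.67 to 0.55. After each array was centred on its median, the split was 67 higher and 34 lower. The median difference of all genes was -0.04. Of all genes 42.7% lay above 0 and 57.2% below, the shares against which the list counts that follow are to be set. Around the 2-fold line, the small heat shock protein gene Cryab and the integrin gene Itga5 were just inside, and Gem (0.98) and Gstm5 just outside. Among the higher genes 6 lay below the filter value of 5.83 on the IFN-γ array, and among the lower genes 12 lay below it on the SHP siRNA array, so the sizes of those differences are uncertain.

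**Figure D1:**
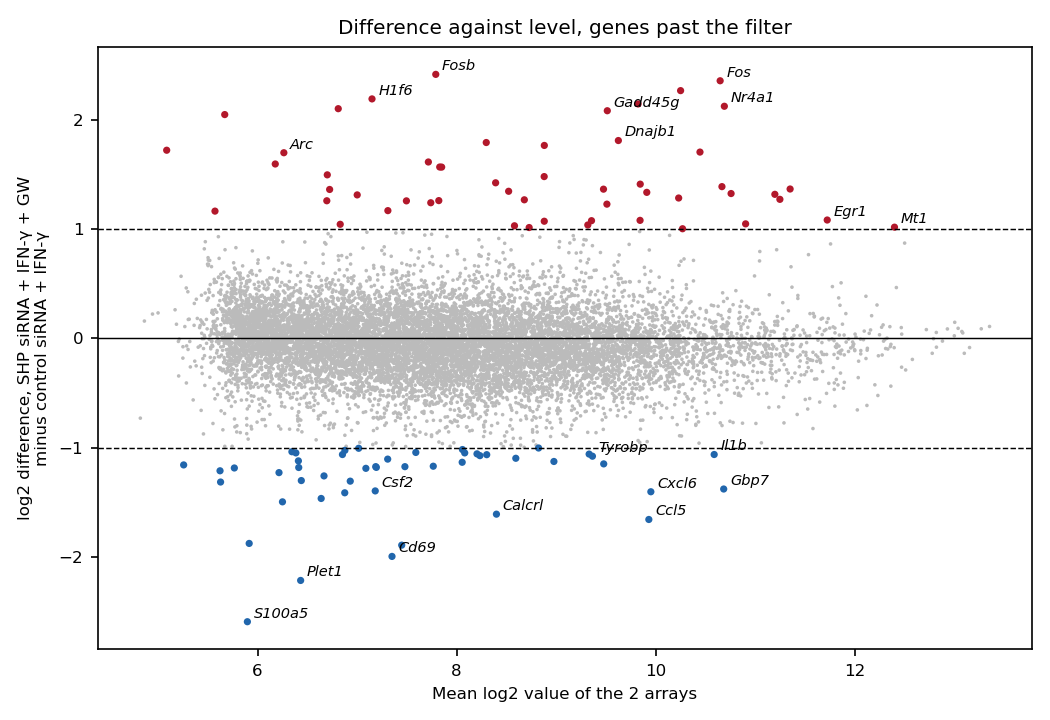
Each point is 1 of 11790 genes, with the mean log2 value of the 2 arrays on the horizontal axis and the log2 difference (SHP siRNA, IFN-γ and GW minus IFN-γ) on the vertical axis; red marks the 53 genes at least 2-fold higher, blue the 48 at least 2-fold lower, and dashed lines mark 2-fold. In the quartile with the highest means 27 were higher and 8 lower, and in the quartile with the lowest means 8 were higher and 16 lower.

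Fosb, which encodes an AP-1 subunit, led the higher genes with 6.35 untreated, 6.58 with IFN-γ, 10.39 with IFN-γ and GW and 8.999 with SHP siRNA, a difference of 2.42 or 5.33-fold. Its partner family member Fos was at 9.33, 9.47, 12.44 and 11.83 in the same order, 5.12-fold higher. For both genes the untreated and IFN-γ arrays lay close together, both GW arrays lay far above them, and the SHP siRNA array was the lower of the GW pair. Jun (1.39) and Atf3 (1.41) were the other AP-1 genes past 2-fold. Of 12 AP-1 subunit genes past the filter, 4 were higher by 2-fold or more and 0 lower, 10 lay above 0 and the median was 0.47. Batf and Batf3, AP-1 partners of lymphoid and myeloid cells, were the 2 below 0, at -0.10 and -0.11.

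The nuclear receptor gene Nr4a1, whose product acts without a known hormone and is itself an immediate early protein, was at 8.34, 9.63, 12.48 and 11.75, 4.36-fold higher. Nr4a3 was at 6.67, 8.14, 11.14 and 9.62, and Nr4a2 at 8.59, 8.94, 11.66 and 9.79, with differences of 1.48 and 0.85. The 3 related genes were thus ordered alike over the 4 arrays, lowest untreated and highest with control siRNA and GW, but Nr4a2 did not reach 2-fold here. Arc, a synaptic immediate early gene, was at 5.74, 5.42, 8.83 and 7.11, and was below the filter value on the IFN-γ array. In the zinc finger family, Egr4 (1.26) and Egr1 (1.08) reached 2-fold, while Egr2 (0.90) and Egr3 (0.23) did not. The list of 20 EGR and activity-regulated genes, which holds the NR4A genes, had all 20 above 0, 6 higher by 2-fold or more, 0 lower and a median of 0.76, compared with 42.7% of all genes above 0.

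Feedback genes that follow such signals were also among the higher genes. Dusp1, a phosphatase that inactivates MAP kinases, was at 8.46, 10.67, 12.51 and 12.04, so that its IFN-γ value already stood above the untreated one. Gadd45g, a stress gene that binds cell cycle and kinase proteins, was at 8.76, 8.47, 11.49 and 10.56, with no such difference between the untreated and IFN-γ arrays. Gadd45a was at 10.58, 9.30, 11.03 and 10.38, so its SHP siRNA value was 1.08 above IFN-γ but near the untreated one. Of 17 MAP kinase phosphatase, sprouty and GADD45 genes, 3 were higher by 2-fold or more and 0 lower, with a median of 0.36 and Dusp2 lowest at -0.90. Among 12 Krüppel-like factor genes 11 lay above 0 with a median of 0.42 and 0 past 2-fold. Klf2, at 6.49, 6.23, 8.76 and 7.19, was the highest of them at 0.96, and at 1.03 after median centring.

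Secreted and signalling genes were among the higher genes too. Ccn1, a matricellular protein gene, was at 8.46, 9.12, 11.87 and 11.38, and the stress cytokine gene Gdf15 at 8.06, 9.59, 11.48 and 11.30. Between the 2 GW arrays, SHP siRNA minus control siRNA, the difference was -0.48 in Ccn1 and -0.19 in Gdf15. Of 19 growth factor genes these were the 2 past 2-fold, with 0 lower and a median of 0.14. Flrt3, an adhesion protein gene, was at 8.55, 8.75, 11.37 and 10.90, and the Notch-responsive repressor gene Hes1 at 8.25, 8.0, 10.61 and 9.76. Nrarp (1.31), a feedback inhibitor of Notch, and Id1 (1.35), a target of bone morphogenetic protein signals, were higher too, within a list of 21 Notch and BMP genes whose median was 0.18 and of which 15 lay above 0. That list was added after the values were seen, as were the circadian, histone and lectin lists below.

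Heat shock genes, whose products refold damaged proteins, stood higher. Dnajb1, a cochaperone of Hsp70, was at 8.5, 8.72, 11.59 and 10.53, and Hsph1, its nucleotide exchange factor, at 9.62, 9.59, 11.45 and 10.87. The untreated and IFN-γ arrays differed little for either gene, and the SHP siRNA array lay between them and the control siRNA array with GW. Of 16 chaperone genes 3 were higher by 2-fold or more and 0 lower, 15 lay above 0 and the median was 0.34. In the unfolded protein and integrated stress response list 2 of 19 passed 2-fold, the glutathione-degrading enzyme gene Chac1 (1.23) and the phosphatase subunit gene Ppp1r15a (1.05), with 0 lower and a median of 0.06. The metallothionein gene Mt1 was 2.02-fold higher, at 12.07, 11.89, 13.08 and 12.91. In the Nrf2 and metallothionein list 11 of 18 genes lay below 0, near the share of all genes (57.2%), and 9 after median centring.

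Some genes were higher on the SHP siRNA array than on all 3 others. H1f6, a linker histone gene best known from testis, was at 6.09, 6.06, 7.67 and 8.25, and Gmnc, which drives formation of multiciliated cells, at 6.22, 5.76, 6.67 and 7.86. The protocadherin gene Pcdh10 was at 6.91, 7.40, 8.53 and 9.19. In H1f6 and Pcdh10 the control siRNA array with GW was the second highest and nearer to the SHP siRNA array than to IFN-γ, whereas in Gmnc it was nearer to the IFN-γ array. Core histone genes H2bcl1 (1.72), H2bc9 (1.60) and Hist2h2bb (1.42) were higher than with IFN-γ alone, and H2ac21 was lower (-1.31). H2bc9 was highest on the SHP siRNA array, but H2bcl1 and Hist2h2bb were highest with control siRNA, IFN-γ and GW. Of 32 histone genes 4 were higher by 2-fold or more and 1 lower, 26 lay above 0 and the median was 0.47. H2bcl1 (4.23) and H2bc9 (5.38) were below the filter value on the IFN-γ array, and H2ac21 (4.97) on the SHP siRNA array. With the filter on both arrays, 2 of 26 histone genes were higher by 2-fold or more and 0 lower. Histone genes are near-identical copies, so probes may read more than 1 of them. The 26 cell cycle genes, with which replication-dependent histones are normally transcribed, had a median of 0.11, 20 above 0 and none past 2-fold (0 higher and 0 lower). Among 16 circadian clock genes 4 were higher by 2-fold or more and 0 lower, with a median of 0.49. They were the repressor genes Ciart (1.57), Nr1d1 (1.32), Per1 (1.27, also in the EGR and activity list) and Nfil3 (1.17). Nr1d1 was highest on the SHP siRNA array, and the others with control siRNA, IFN-γ and GW.

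**Figure D2:**
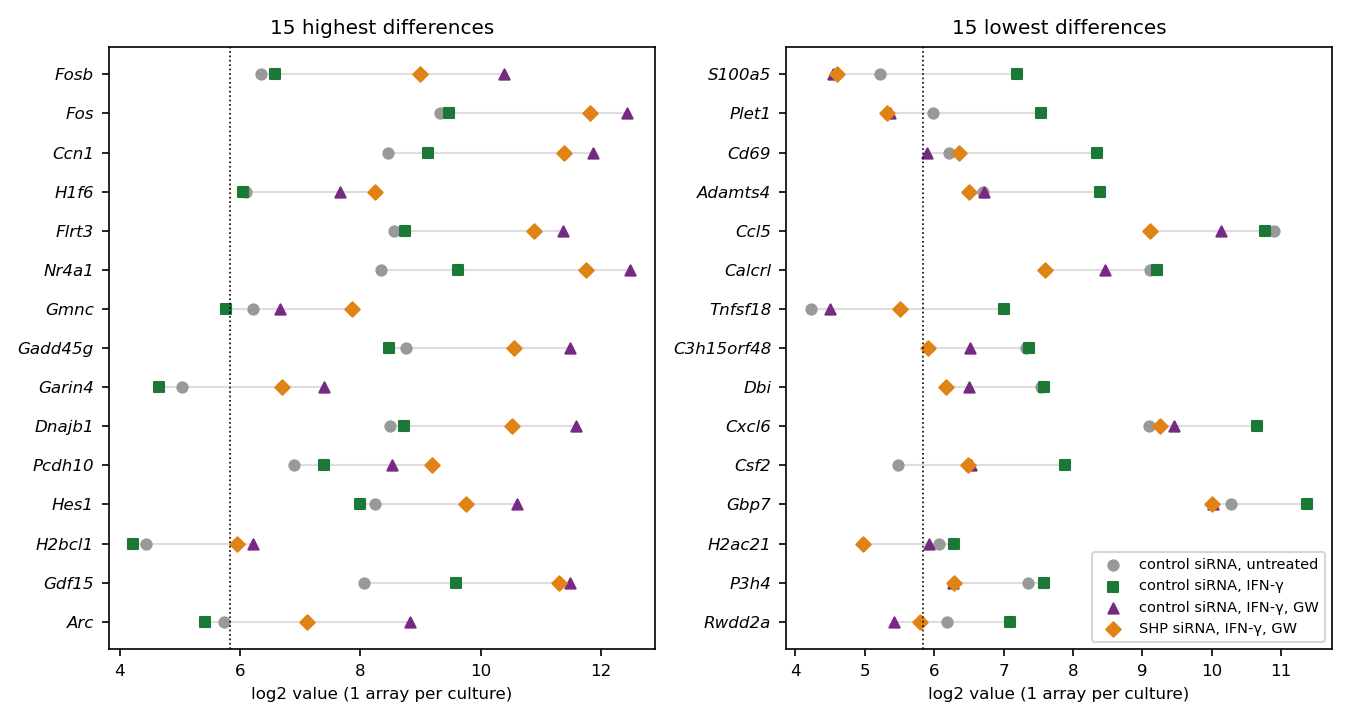
Log2 values on each of the 4 arrays (1 per culture) for the 15 genes with the highest and the 15 with the lowest difference between SHP siRNA with IFN-γ and GW (orange diamonds) and IFN-γ alone (green squares), with provisional symbols left out; the dotted line is the filter value of 5.83. Fosb runs from 6.35 to 10.39, with the SHP siRNA array at 8.999, and S100a5 is highest with IFN-γ at 7.19 and near 4.6 on both GW arrays (4.55 and 4.60).

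The promoters of the higher genes were compared in sequence, which the choice of genes did not use. RefSeq windows of assembly GRCr8 were matched by gene identifier for 43 of the 53 higher genes, 37 of the 48 lower genes and 9672 of all genes compared, and the 250 bases before each start were searched on both strands. The 5-letter core of the cyclic AMP response element, TGACG, was present in 25 of 43 higher genes (58.1%), in 3 of 37 lower genes (8.11%) and in 28.1% of all genes compared. It occurs in 18.2% of all windows in the table. The full palindrome TGACGTCA, which contains the core, was found in 3 higher genes (6.98%), 0 lower genes and 2.89% of all genes compared. Windows of the higher genes had a median GC content of 61.2%, those of the lower genes 48.4% and those of all genes compared 60.0%, and in the richest quartile by GC content the core was present in 10 of 12 higher genes and 27.6% of all genes. In the poorest quartile it was present in 4 of 11 higher genes, 2 of 23 lower genes and 21.5% of all genes. In the quartiles between, from poorer to richer, it was present in 4 of 9 higher genes (31.1% of all genes) and 7 of 11 (32.2%). Fosb, which had the greatest difference, and Tfpi2, Per1 and Nr1d1 were among the higher genes with a window but no core. These are counts of letters, not of bound sites.

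The sequences below show 4 higher genes with the core or the full element, in the order of their difference, and Hsph1 with a heat shock element. Each is written 5′ to 3′ towards the transcription start, ending at the base before it, with GRCr8 coordinates. Capitals mark the core in Nr4a1, the full element in Dusp1, Ccnl1 and Ppp1r15a, and the heat shock element (GAA, TTC and GAA with any 2 letters between neighbours, on either strand) in Hsph1.

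Nr4a1, chr7:134259888-134260137, + strand: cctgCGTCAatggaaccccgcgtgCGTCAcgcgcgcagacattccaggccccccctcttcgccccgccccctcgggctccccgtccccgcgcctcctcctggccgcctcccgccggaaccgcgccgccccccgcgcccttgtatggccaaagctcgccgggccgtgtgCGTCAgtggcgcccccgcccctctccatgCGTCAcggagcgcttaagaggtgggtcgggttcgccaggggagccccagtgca

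Dusp1, chr10:17184703-17184852, + strand: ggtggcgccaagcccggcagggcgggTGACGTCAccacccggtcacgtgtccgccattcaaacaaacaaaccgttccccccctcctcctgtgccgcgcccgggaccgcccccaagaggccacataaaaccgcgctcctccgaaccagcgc

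Ccnl1, chr2:152507469-152507618, - strand: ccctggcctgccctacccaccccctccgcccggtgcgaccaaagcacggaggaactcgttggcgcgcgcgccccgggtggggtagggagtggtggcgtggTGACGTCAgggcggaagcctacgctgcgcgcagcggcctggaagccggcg

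Ppp1r15a, chr1:105139597-105139746, - strand: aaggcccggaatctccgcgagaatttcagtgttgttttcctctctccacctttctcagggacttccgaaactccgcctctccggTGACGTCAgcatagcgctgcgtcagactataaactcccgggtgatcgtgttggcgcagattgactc

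Hsph1, chr12:10427218-10427367, + strand: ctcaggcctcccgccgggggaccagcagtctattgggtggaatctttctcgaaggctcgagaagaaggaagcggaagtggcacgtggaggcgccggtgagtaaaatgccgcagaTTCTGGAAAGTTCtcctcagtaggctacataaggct

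Nr4a1 holds 4 separate cores, the most among the higher genes together with Ppp1r15a, whose 4 include both strands of its full element. In the heat shock element search, 4 of 14 chaperone genes (28.6%) matched, against 0.403% of all genes compared, 1 of 43 higher genes (2.33%) and 2 of 37 lower genes (5.41%), Clec4d and Trim25. The CArG box was found in 4 of 15 EGR and activity-regulated genes (26.7%) and in 1.38% of all genes compared. Among the 43 higher genes with a window it matched in Egr1 alone.

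**Figure D3:**
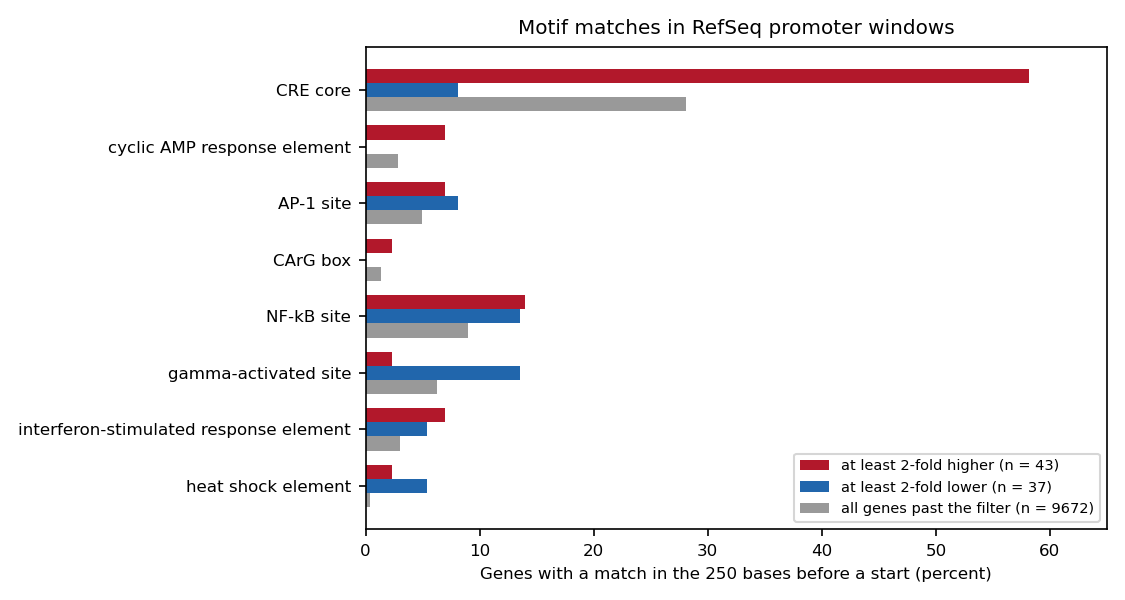
Share of genes (percent, horizontal axis, from 0) with at least 1 match to each motif in the 250 bases before a RefSeq start, for 43 higher genes (red), 37 lower genes (blue) and 9672 genes compared (grey). The core of the cyclic AMP response element (CRE core) stands at 58.1% in the higher genes and 8.11% in the lower genes. The gamma-activated site stands at 2.33% (1 gene) and 13.5% (5 genes), with GC content differing between the sets.

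The lower genes were chosen as low against the IFN-γ array, so that array's height above the untreated one is given for each only as a description. S100a5, a calcium-binding protein gene, was at 5.22 untreated, 7.19 with IFN-γ, 4.55 with IFN-γ and GW and 4.60 with SHP siRNA, a difference of -2.59 or 6.03-fold. Plet1, a surface protein gene of progenitor cells, was at 5.98, 7.54, 5.36 and 5.33, and Adamts4, a protease gene that cleaves matrix proteoglycans, at 6.71, 8.40, 6.71 and 6.50. In these 3 genes the IFN-γ array stood alone and high, and both GW arrays were within 0.21 of each other. Cd69, an early activation marker of leukocytes, was at 6.21, 8.35, 5.89 and 6.35. S100a5 and Plet1 were below the filter value on both GW arrays, and S100a5 passed the filter through the IFN-γ array alone.

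In the NF-κB-associated list some cytokine genes were also highest with IFN-γ alone, while others were not: Il6 and Lif were highest with IFN-γ and GW, Il10 and Il18 in the untreated culture, and Csf1 and Il23a on the SHP siRNA array. Csf2, which encodes granulocyte-macrophage colony-stimulating factor, was at 5.48, 7.88, 6.54 and 6.49, so both GW arrays lay between the untreated and IFN-γ arrays. Tnfsf18, a ligand that costimulates T cells, was at 4.22, 7.0, 4.5 and 5.50, and Il1b at 9.20, 11.12, 9.18 and 10.06. For those last 2 genes the control siRNA array with GW was near the untreated one and the SHP siRNA array was higher. Of 36 genes of the list, 5 were at least 2-fold lower and 0 higher, 28 lay below 0 and the median was -0.44. The 5 were Cd69, Tnfsf18, Csf2, the NF-κB inhibitor gene Tnip3 (-1.18) and Il1b (-1.06, or -0.99 after median centring and cyclic loess). Il15, a growth factor gene for T and natural killer cells that is not in the list, was at 5.39, 6.83, 5.59 and 5.6. Tnfsf18 and Il15 passed the filter through the IFN-γ array alone.

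Most chemokine genes were lower, by unequal amounts. Ccl5, which recruits T cells and monocytes, was at 10.89, 10.76, 10.13 and 9.10, lowest on the SHP siRNA array and hardly different between untreated and IFN-γ. Cxcl6, a neutrophil chemokine gene, was at 9.09, 10.65, 9.46 and 9.25, with both GW arrays near the untreated one. Of 19 chemokine genes these were the 2 at least 2-fold lower, with 0 higher, 16 below 0 and a median of -0.33. The ligands of the receptor CXCR3 did not reach 2-fold: Cxcl9 (-0.55), Cxcl10 (-0.61) and Cxcl11 (-0.89). Cxcl9 was at 7.20, 9.73, 6.87 and 9.18, so the SHP siRNA array was near IFN-γ and the control siRNA array with GW was the lowest. Cxcl1, a neutrophil chemokine gene, had the highest difference of the list, 0.37.

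Genes of guanylate-binding proteins and of immunity-related GTPases, which attack intracellular pathogens, were below 0 in 9 of 9 genes (8 of 9 after each of the 3 other scalings), with a median of -0.40. Gbp7 was at 10.27, 11.37, 10.01 and 9.996, and the GTPase gene Ifi47 at 10.17 untreated, 10.92 with IFN-γ and 9.96 with SHP siRNA. On both GW arrays these 2 genes were below even the untreated value, and the pair of GW arrays differed by less than 0.05. Gbp5, at 11.07, 12.10, 11.24 and 11.70, was nearer to IFN-γ. Only Gbp7 reached 2-fold in this list. Of 31 antiviral genes 1 was at least 2-fold lower, the ubiquitin ligase gene Trim25 (-1.06, or -0.98 after median centring and -0.99 after cyclic loess), with 0 higher, 24 below 0 and a median of -0.30. In antigen processing and presentation 20 of 22 genes lay below 0 with a median of -0.36, and none reached 2-fold (0 higher and 0 lower). Lowest there was the immunoproteasome gene Psmb10, at 9.02, 9.03, 8.28 and 8.11.

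Regulators of the IFN-γ pathway differed by unequal amounts and in both directions. The receptor genes Ifngr1 and Ifngr2 differed by -0.12 and -0.29. Socs1, the feedback inhibitor of Janus kinases, was at 6.70, 8.60, 6.73 and 7.88, so the SHP siRNA array was between IFN-γ and the other 2. Socs3, a related inhibitor, was at 8.76, 9.05, 10.82 and 9.84, in the opposite direction. Stat5a was at 8.03, 9.18, 7.90 and 8.35. Of 29 JAK-STAT and interferon signalling genes none reached 2-fold (0 higher and 0 lower), 20 lay below 0 (16 after each of the 3 other scalings), against 57.2% of all genes, and the median was -0.11.

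Promoter windows were also searched for elements of these pathways, and 2 lower genes chosen for their matches are printed below. An NF-κB site, searched by its 10-letter consensus, was present in 5 of 37 lower genes (13.5%), 6 of 43 higher genes (13.95%), 8 of 15 chemokine genes (53.3%) and 8.95% of all genes compared. The gamma-activated site TTCNNNGAA was present in 5 lower genes (13.5%), 1 higher gene (2.33%) and 6.26% of all genes compared. It occurs in 7.67% of all windows in the table. It was not compared within quartiles of GC content, which was lowest in the lower genes (median 48.4%). An interferon-stimulated response element, searched as GAAA, any 2 letters and GAAA, was present in 7 of 9 guanylate-binding protein and GTPase genes (77.8%) and 7 of 18 antigen presentation genes (38.9%), against 2.98% of all genes compared, in 2 of the 37 lower genes (5.41%) and in 3 of the 43 higher genes (6.98%). Capitals below mark the overlapping matches to the NF-κB consensus on both strands in Cxcl6, and in Gbp7, from left to right, 2 gamma-activated sites and the interferon-stimulated response element on the reverse strand.

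Cxcl6, chr14:17596418-17596567, - strand: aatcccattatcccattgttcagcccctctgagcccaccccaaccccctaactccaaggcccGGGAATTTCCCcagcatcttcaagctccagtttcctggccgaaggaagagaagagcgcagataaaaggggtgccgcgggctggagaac

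Gbp7, chr2:233948739-233948888, + strand: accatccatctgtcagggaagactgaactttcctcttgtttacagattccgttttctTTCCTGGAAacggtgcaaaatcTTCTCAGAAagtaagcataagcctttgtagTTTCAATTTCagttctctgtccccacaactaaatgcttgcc

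Several lower genes were close to, or below, their untreated value with IFN-γ alone. Calcrl, the receptor gene for calcitonin gene-related peptide and adrenomedullin, was at 9.11, 9.21, 8.46 and 7.6. Dbi, which encodes an acyl-CoA-binding protein that astrocytes also secrete, was at 7.53, 7.58, 6.51 and 6.17. Cntf, a neurotrophic factor gene of astrocytes, was at 9.63, 9.54, 8.84 and 8.42. In all 3 genes the untreated and IFN-γ arrays were close, and the values were lower with GW and lowest with SHP siRNA. Cyp1a1, a monooxygenase gene, was at 8.93, 8.35, 7.20 and 7.18, and C3h15orf48, a gene of a small mitochondrial protein, at 7.32, 7.37, 6.51 and 5.91.

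Nuclear genes of the mitochondrial respiratory chain were lower by less than 2-fold. All 27 lay below 0 (25 to 26 after the 3 other scalings), from Ndufa4 at -0.77 and Cox5b at -0.76 up to just below 0 for Uqcrc2, with a median of -0.35, compared with 57.2% of all genes below 0. None reached 2-fold (0 lower). Ndufa4 was at 11.13, 11.04, 10.28 and 10.26, and Cox5b at 8.80, 8.67, 7.98 and 7.90, so the untreated and IFN-γ arrays stood above both GW arrays. Ribosomal protein genes had a median of -0.06, which turned to 0.01 after median centring and after cyclic loess.

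Markers of microglia, the brain's macrophages, stood lower beside the inflammatory genes. Their summed signal over 22 markers was 14.59 untreated, 14.31 with IFN-γ, 13.75 with IFN-γ and GW and 13.94 with SHP siRNA (log2), and none was below the filter value on any array (0 of 22). Tyrobp, a signalling adaptor gene of myeloid cells, was at 10.24, 9.90, 8.68 and 8.83, and was the 1 marker at least 2-fold lower. Of 22 markers 17 lay below 0 (15 after the 3 other scalings), against 57.2% of all genes, with a median of -0.35. Cx3cr1 (0.58) and P2ry6 (0.36), both lower with IFN-γ than untreated, lay above 0. In such bulk cultures fewer cells of a type and less RNA per cell cannot be told apart. The part of these markers in the lower cytokine and chemokine values was not tested. Pattern receptor genes of myeloid cells were also lower. Of 21 C-type lectin and Toll-like receptor genes 3 were at least 2-fold lower, Clec4d (-1.19), Tlr1 (-1.10) and Clec7a (-1.06, or -0.98 after median centring), and 0 higher. Clec4d, at 4.28, 6.36, 4.59 and 5.17, passed the filter through the IFN-γ array alone. With the filter on both arrays, 2 of 12 genes of the list were at least 2-fold lower.

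Other cell type lists differed little. Astrocyte markers had a median of -0.01 over 17 genes, which turned above 0 under the 3 other scalings (0.02 to 0.07), with the water channel gene Aqp4 at 11.01, 11.54, 11.31 and 12.01. Meningeal and fibroblast markers had a median of 0.11 with 13 of 17 above 0, led by the matrix genes Postn (0.65) and Col1a1 (0.61), the growth factor gene Igf2 (0.61) and the collagen gene Col3a1 (0.60). Their summed signal was 14.39 with IFN-γ and 14.46 with SHP siRNA. Oligodendrocyte lineage markers had a median of -0.14 over 9 genes and neuron markers one of -0.03 over 7, the latter turning to 0.05 after median centring. In the endothelial and mural list 4 of 11 markers passed the filter.

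Liver X receptors are sterol-sensing nuclear receptors with which SHP can interact, and their targets export cholesterol and make fatty acids. Of 18 targets past the filter none reached 2-fold (0 higher and 0 lower), 10 lay above 0 and the median was 0.02. The sterol exporter genes Abca1, at 10.18, 10.12, 10.34 and 10.64, and Abcg1, at 8.72, 8.21, 8.63 and 8.88, were highest on the SHP siRNA array, as was the lipogenic regulator gene Srebf1, at 8.77, 8.74, 9.36 and 9.52. Mylip, whose product degrades the low-density lipoprotein receptor, was at 7.04, 6.43, 7.10 and 7.19. Npc1, which moves cholesterol out of lysosomes, was lower, at 8.66, 8.72, 7.61 and 7.82. The receptor genes Nr1h2 (-0.37) and Nr1h3 (-0.32) were lower by less than 2-fold. Insig1, which retains sterol regulators in the endoplasmic reticulum, was 2.02-fold higher, within a cholesterol synthesis list of 19 genes with a median of -0.04 that turned above 0 under the 3 other scalings. Among 21 genes of SHP's receptor and corepressor partners none reached 2-fold (0 higher and 0 lower), and the range ran from -0.52 (Rarg) to 0.26 (Hdac4).

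**Figure D4:**
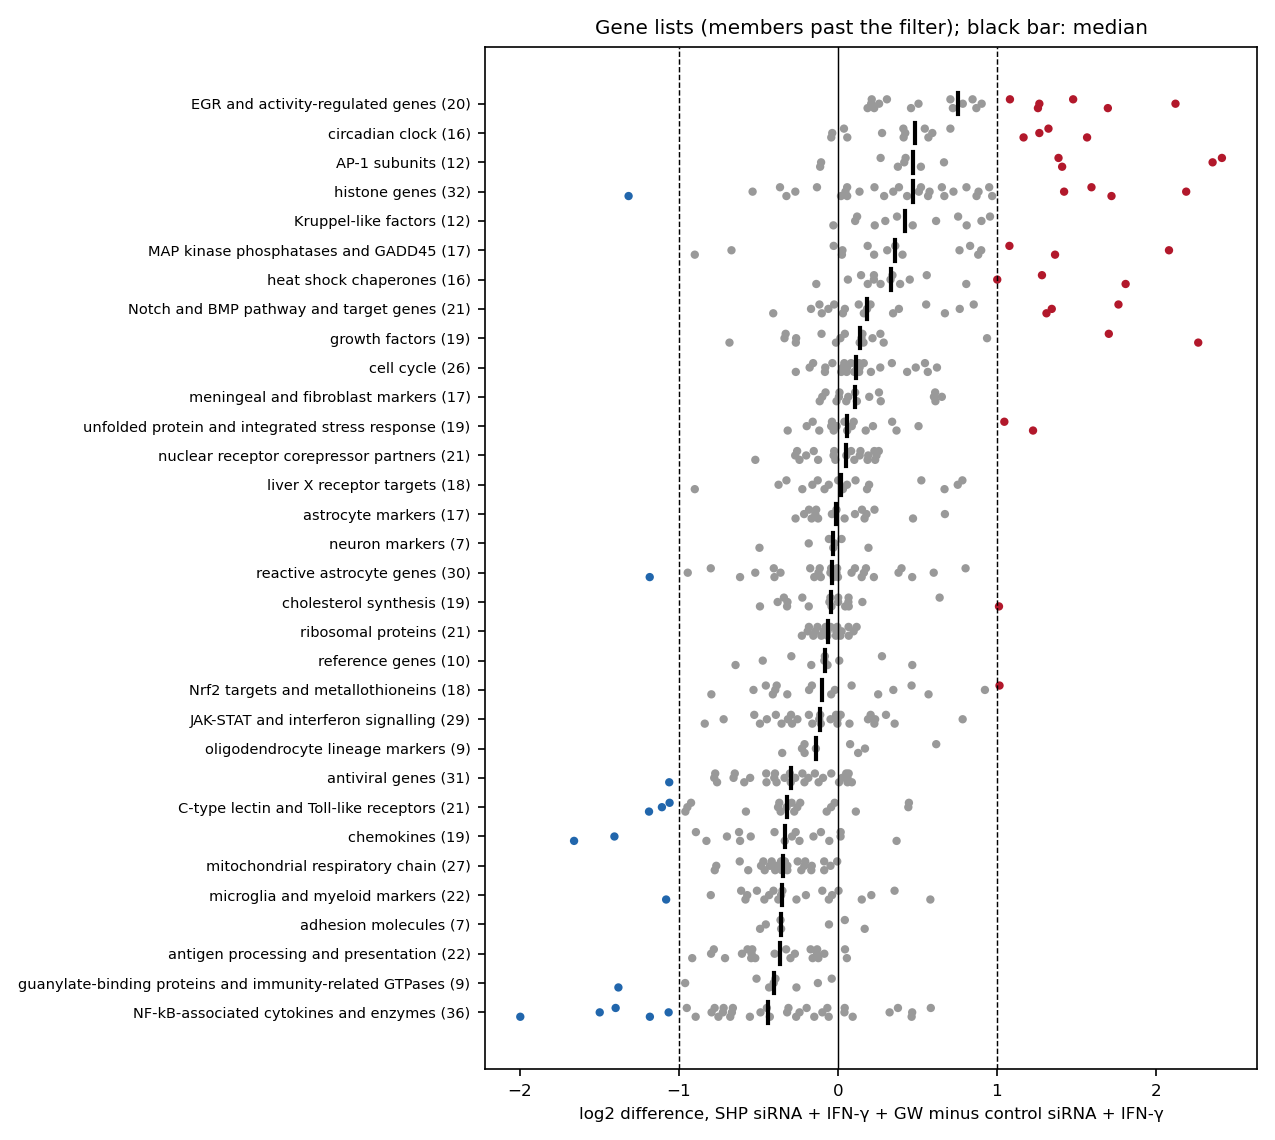
Each point is the log2 difference (SHP siRNA, IFN-γ and GW minus IFN-γ) of 1 gene past the filter, in rows by gene list with the number of genes in brackets; the black bar is the list median, red and blue mark genes at least 2-fold higher or lower. EGR and activity-regulated genes have the highest median (0.76) and NF-κB-associated genes the lowest (-0.44).

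Side by side with the comparison of GW under control siRNA, which shares the IFN-γ array, the 53 higher genes had a median difference of 1.36 here and 1.87 there, and the 48 lower genes had -1.17 in both. The genes were chosen by their difference from that same IFN-γ array, so part of this likeness is fixed by the choice. Across all genes, 113 (0.958%) were higher by 2-fold or more and 112 (0.950%) lower by as much with GW under control siRNA. The list medians for that comparison were 1.54 for EGR and activity-regulated genes, 0.84 for chaperones, -0.83 for NF-κB-associated genes and -0.63 for chemokines, against 0.76, 0.34, -0.44 and -0.33 here. Antigen presentation genes (-0.30 and -0.36), antiviral genes (-0.30 in both) and respiratory chain genes (-0.33 and -0.35) had nearly equal medians in the 2 comparisons.

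Among the genes with the greatest differences between the 2 GW arrays, some lay close to IFN-γ in the SHP siRNA culture. They were picked for a control siRNA with GW array that stood apart from the SHP siRNA array. Their pattern is thus partly fixed by the choice, and how many other genes shared it was not counted. Vof16 was at 9.74, 9.82, 8.17 and 9.64. Syt4, a vesicle protein gene, was at 6.61, 6.69, 8.37 and 6.63, and the activin subunit gene Inhba at 7.19, 7.31, 8.75 and 7.32. Ripk2, a kinase gene of bacterial sensing, was at 9.20, 11.75, 10.42 and 11.55, and Tnfsf15, a cytokine gene of the tumour necrosis factor family, at 7.43, 9.76, 8.58 and 9.66. For each of these 5 genes the SHP siRNA array was within 0.21 of the IFN-γ array.

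A separate pair of arrays was used to follow the genes found here. The difference between control siRNA with IFN-γ and GW and the untreated culture shares no array with the comparison above. In it all 53 higher genes lay above 0 (39.7% of all genes did), from 0.33 (Trim17) to 4.47 (Nr4a3), with a median of 1.94 and 44 at least 2-fold higher (83%), against 1.65% of all genes compared. Of the 48 lower genes 37 lay below 0 (77.1%, against 60.3% of all genes), with a median of -0.46, and 6 were at least 2-fold lower (12.5%, against 0.840%). The 1 lower gene that was at least 2-fold higher there was Csf2, at 1.06. Cyp1a1 was the lowest at -1.73. That pair contrasts IFN-γ as well as GW, and across the 11790 genes, which are not independent replicates, both differences correlated at 0.542 (Pearson) and 0.546 (Spearman). The filter used all 4 arrays, so the choice of genes was not wholly free of this pair. Garin4, H2bcl1, Arc and Trim17 passed it through the GW arrays alone. Among the lower genes S100a5, Tnfsf18, Il15, Ubd and Clec4d were below the filter value on both arrays of this pair.

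**Figure D5:**
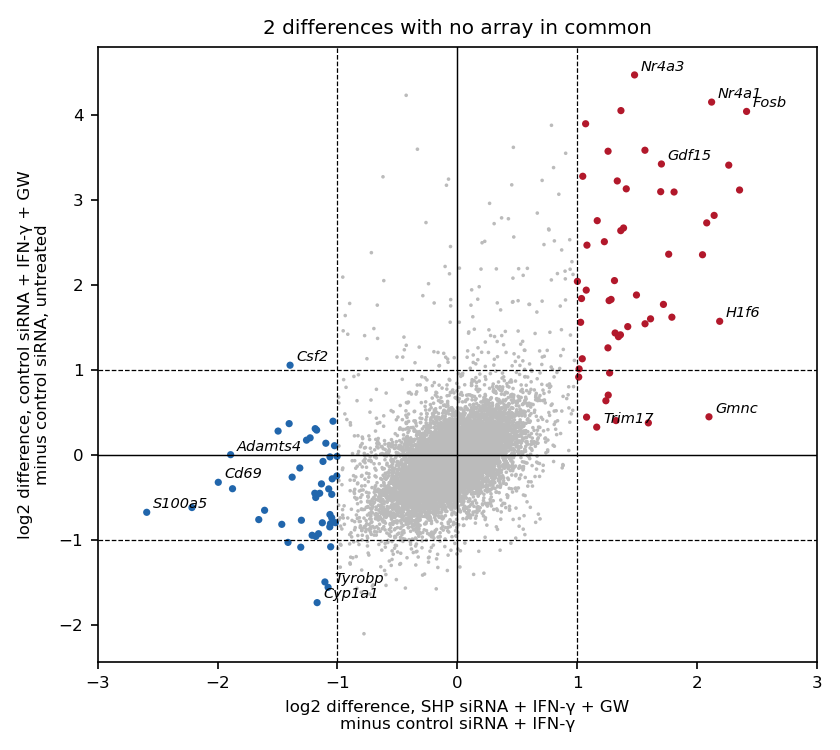
Each point is a gene, with its difference between SHP siRNA, IFN-γ and GW and IFN-γ alone on the horizontal axis and its difference between control siRNA, IFN-γ and GW and the untreated culture on the vertical axis (both log2, 4 different arrays); dashed lines mark 2-fold. The 53 red genes all lie above 0 on the vertical axis, and of the 48 blue genes 37 lie below it.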

How the data were processed

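Gene expression was measured on 4 single-colour arrays, 1 per culture. Per the labels, biotin-labelled sense-strand cDNA was hybridised. The authors deposited a table with a single value for each probe on each array, taken here as log2 signal because values run from 1.14 to 13.4; for the log base, background correction, probe summary and normalization, the sources used here say nothing. Of 29489 probes, 18511 had 1 gene symbol (575 several, 10403 none), 18394 of them updated through the RefSeq gene table of GRCr8. Where a gene had several probes, the one with the greatest 4-array mean was used. The number of arrays limits the precision.

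Differences of log2 values were computed in Python 3.11.15, and counting was tested on simulated data. Quantile normalization and cyclic loess (limma 3.58.1, R 4.3.3), median centring, 3 other filters, the mean of a gene's probes, other thresholds and list means were tried. Named genes were the 15 highest and the 15 lowest differences past 1.5-fold in this comparison, in GW under control siRNA and in SHP siRNA under GW, leaving out provisional and receptor cluster symbols, up to 5 genes per list with the greatest size of difference, and genes of SHP, liver X, farnesoid X and IFN-γ receptors; others, such as further members of a named family, were named after their values were seen. The members, 29 gene lists and rules were chosen with earlier results of these data known.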

Additional observations from a re-analysis of the deposited data

Results flagged for a closer look

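Of 3683 probes past the filter that carry several gene symbols or none and so stayed out of the comparison, 37 (1.00%) were at least 2-fold higher with SHP siRNA, IFN-γ and GW than with IFN-γ alone and 19 (0.516%) at least 2-fold lower. Among the named genes compared the shares were 0.450% and 0.407%. The same 2 single arrays were read, so these differences too may be ones between single cultures or single arrays. The highest of these probes stood at 5.97 untreated, 6.56 with IFN-γ, 11.2 with IFN-γ and GW and 10.4 with SHP siRNA, a difference of 3.79 that is greater than that of any named gene compared. The lowest stood at 8.31, 7.96, 6.995 and 5.65. Their genes are unnamed here.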

How the results depend on the processing

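The counts of genes at least 2-fold higher (53) and of genes at least 2-fold lower (48) stayed within 1.5 times under the 3 other scalings, the 3 other filters and the mean of a gene's probes, from 47 to 67 higher and from 34 to 60 lower. With a threshold of 1.5-fold the counts were 236 higher and 438 lower, and with 3-fold 17 and 7. The 53 higher genes were all among those called after each of the 3 other scalings, and of the 48 lower genes 34 were still called after median centring, 43 after cyclic loess and 44 after quantile normalization. Of 199 named genes, 6 crossed the 2-fold line after median centring (Clec7a, Il1b and Trim25 out, Hbegf, Klf2 and Osgin1 in), 3 after cyclic loess (Il1b and Trim25 out, Hbegf in) and 0 under the other scaling, the filters and the mean of probes; those past 2-fold kept their sign. Median centring shifted the median of all genes by 0.08, the other scalings by 0.03. The planned pseudocount was not run, since the values are on a log scale. No paired analysis was possible because each group has 1 array. Values below 5.83 may be array background, which limits the folds of genes such as S100a5, Plet1 and Arc.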
